A study of Saccharomyces cerevisiae with 36 samples.

Results

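Budding yeast of the strain labelled msn2/4∆ and of the wild type (WT) were compared in untreated, growing cultures. The comparison used 6 of the series' 36 RNA sequencing libraries, 3 of each strain, chosen by their titles, and covered every gene of the deposited count table. It asks which genes depend on the transcription factors Msn2 and Msn4 when no stress is applied.

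Both strains are haploid, of mating type a, and share the auxotrophic alleles his3∆1, leu2∆0, ura3∆0 and met15∆0. The mutant carries msn2::hphMX4 and msn4::natMX4 in addition, and WT has neither. Cells grew in YPD, a rich glucose medium, at 25 °C to an OD600 of 0.8. Each strain was also heat-shocked at 37 °C (15 min) or given 10 mM of the proline analog azetidine-2-carboxylic acid (AzC) over 1 h, with 3 libraries of each, and these 12 libraries serve below as other material for the same strain difference. Untreated libraries of the strains HSF1+ and hsf1∆, 3 of each, are set beside some results. Both carry the hsf1∆ allele and a cassette from which the chaperones Ydj1, Hsc82 and Ssa2 are made, and HSF1+ also carries HSF1 and LYS2, so they differ from WT by more than one gene. The labels do not say whether the 3 libraries of a group came from separate cultures or clones, so the p-values measure the spread between these libraries.

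Msn2 and Msn4 are paired zinc-finger activators of the general stress response. In unstressed cells protein kinase A and TORC1 signalling keep them largely out of the nucleus. When these signals drop or stress acts, they enter the nucleus and bind the stress response element (STRE), whose core reads AGGGG on one strand and CCCCT on the other. Genes they are known to drive encode enzymes of trehalose and glycogen metabolism, antioxidant enzymes, small heat shock proteins and isozymes of sugar phosphorylation.

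Of the 5 called STRE genes with the smallest p, 200 bases upstream of the coding start are printed first, because the results turn on genes of this kind. Capitals mark STRE cores on either strand. Each stretch was placed, within 500 bases of the coding start, where it held the most STRE cores, so their presence in it is not a result. Sequences are from the RefSeq R64 genome, 5′ to 3′ on the gene's own strand, and end at least 100 bases before the coding start. They lie at chrVI:255349-255548 (minus strand) for HXK1, chrXIV:336111-336310 (plus) for YGP1, chrVII:428057-428256 (minus) for PNC1, chrXIII:774379-774578 (plus) for HOR7 and chrVII:508465-508664 (minus) for STF2.
HXK1: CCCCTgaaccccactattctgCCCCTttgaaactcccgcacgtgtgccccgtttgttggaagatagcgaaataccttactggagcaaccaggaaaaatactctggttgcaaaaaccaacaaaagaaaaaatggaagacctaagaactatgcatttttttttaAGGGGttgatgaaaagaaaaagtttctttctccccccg
YGP1: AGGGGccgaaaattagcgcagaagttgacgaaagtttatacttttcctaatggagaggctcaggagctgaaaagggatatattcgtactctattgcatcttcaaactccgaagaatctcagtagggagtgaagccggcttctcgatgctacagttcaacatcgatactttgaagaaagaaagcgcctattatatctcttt
PNC1: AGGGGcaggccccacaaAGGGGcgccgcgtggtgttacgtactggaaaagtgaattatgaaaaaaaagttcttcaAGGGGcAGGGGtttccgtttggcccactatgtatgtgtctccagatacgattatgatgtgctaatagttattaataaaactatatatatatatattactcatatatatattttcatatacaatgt
HOR7: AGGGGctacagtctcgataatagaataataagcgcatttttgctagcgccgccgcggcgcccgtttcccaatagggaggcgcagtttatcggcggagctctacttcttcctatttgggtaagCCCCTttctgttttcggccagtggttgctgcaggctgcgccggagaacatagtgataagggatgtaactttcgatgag
STF2: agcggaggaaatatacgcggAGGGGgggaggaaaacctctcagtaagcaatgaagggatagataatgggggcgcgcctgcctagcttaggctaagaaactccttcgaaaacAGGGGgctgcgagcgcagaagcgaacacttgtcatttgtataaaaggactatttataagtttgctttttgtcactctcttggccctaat
These stretches hold 3, 1, 4, 2 and 2 STRE cores in the order printed.

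The AGGGG core, searched on both strands, occurred at least once in the 500 bases before the coding start of 34.1% of 6000 protein-coding genes, and at least 2 times in 8.13%. Among the genes called lower in the mutant, MSN2 left out, 18 of 23 with a full window held it (78.3%), and 15 held it at least 2 times (65.2%). The presence of the core did not mark the genes that moved: of the general stress genes that did not pass the test, 34 of 38 held it as well (89.5%). At least 2 cores lay before 24 of these 38 (63.2%) and before 10 of the 11 general stress genes called lower (90.9%). Of the genes called lower outside the general stress list, MSN2 left out, 7 of 12 held the core (58.3%) and 5 held it at least 2 times (41.7%). The match is a description of letters and not of a bound site.

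Total counts were 14413233, 11572316 and 12054920 in the labelled msn2/4∆ libraries 1 to 3, and 14264385, 56295024 and 42724231 in the WT libraries 1 to 3, so WT replicates 2 and 3 were the deepest of the 6. Levels are given as CPM, a gene's count relative to the TMM-scaled library total. Of 7126 genes, 6109 had enough counts to be tested. A gene was called at an edgeR quasi-likelihood p below 0.05 after Benjamini-Hochberg adjustment and a change of at least 2-fold. The summed level of 7 a-cell marker genes ran from 2205 to 2286 CPM in the mutant and from 2116 to 2230 CPM in WT, and no marker was at 0 in all 6 libraries. That of 12 meiosis genes ran from 81.6 to 85.9 CPM in the mutant and from 82.8 to 88.7 CPM in WT.

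The genes that the labels give as replaced were read first. MSN2 (YMR037C, chrXIII:344403-346517) had 0.990, 2.09 and 1.14 CPM in the labelled msn2/4∆ libraries, against 136.03, 130.6 and 130.7 CPM in the WT libraries, a log2 change of -6.58 ± 0.18 (SE; adjusted p = 5.77e-21). MSN4 (YKL062W, chrXI:323228-325120) had 50.6, 49.6 and 58.4 CPM in the mutant libraries, against 32.8, 35.5 and 47.0 CPM in the WT libraries. It was higher in the mutant, by 0.45 ± 0.11 on the log2 scale (adjusted p = 0.0343), and every mutant library stood above every WT library. With each of the 6 libraries left out in turn, the adjusted p of MSN4 ran from 0.00133 to 0.254 and passed only without WT replicate 3. The MSN2 transcript was therefore nearly absent, while reads assigned to MSN4 were not reduced. A count over a whole gene does not show which part of it the reads come from, so what is left of MSN4 in the strain cannot be told from this table, and the strain is called "labelled msn2/4∆" for that reason.

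MSN4 behaved differently under stress. With heat shock it had 41.0, 40.4 and 40.1 CPM in the labelled msn2/4∆ libraries, against 105.1, 115.5 and 125.8 CPM in WT. With AzC it had 38.2, 32.6 and 41.3 CPM in the mutant, against 63.9, 65.2 and 77.3 CPM in WT. None of the 5 tested neighbours on either side of MSN2 or of MSN4 passed the test in untreated cells. The largest shift among those at MSN4 was a log2 change of 0.39 ± 0.33 at YKL065W-A, a gene at about 1 CPM in both strains. Median log2 changes by chromosome ran from -0.03 to 0.01, and the median over all tested genes was -0.01.

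In untreated cells few genes differed by 2-fold or more, and most of these were lower in the mutant. Of 6109 genes, 33 were called (0.54%), 26 of them lower in the mutant (0.426%) and 7 higher (0.115%). Without the fold minimum 64 genes passed (1.05%), 48 lower (0.786%) and 16 higher (0.262%). With replicate number as a block 89 passed lower and 30 higher, among them all 64, and with the block in the 12 untreated libraries alone 298 passed, of which 41 were changed 2-fold. All 33 called genes had libraries that did not overlap between the strains. Over all tested genes, the 3 mutant libraries lay below the 3 WT libraries in 469 (7.68%) and above them in 329 (5.39%). In 20 of the 26 genes called lower, WT replicate 3 was the highest WT library, and in 17 of them mutant replicate 3 was the highest mutant library. The part of replicate or depth in this was not tested.

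**Figure D1:**
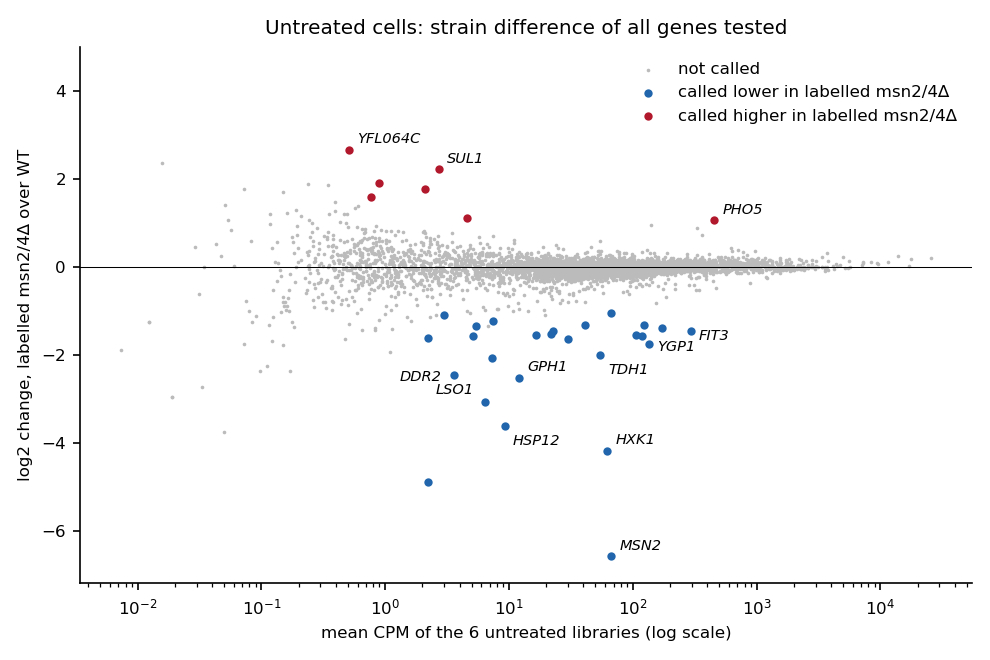
Log2 change of labelled msn2/4∆ over WT in untreated cells (vertical axis) against mean CPM of the 6 libraries (horizontal, log scale) for the 6109 genes tested. Blue points are the 26 genes called lower in the mutant, red points the 7 called higher and grey points genes not called; MSN2 is lowest at -6.58.

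The enzymes that put the first phosphate on glucose fell together in the mutant, apart from the main hexokinase. HXK1 (YFR053C), hexokinase 1, had 3.88, 6.94 and 8.80 CPM in the labelled msn2/4∆ libraries, against 71.3, 94.5 and 186 CPM in the WT libraries. Its log2 change was -4.18 ± 0.38 (adjusted p = 3.67e-08), the largest of any gene after MSN2 and YFR052C-A. A culture average of this kind cannot tell apart fewer cells that use a gene and less RNA per cell, here and in all that follows. GLK1 (YCL040W), glucokinase, had 51.7, 66.6 and 93.0 CPM in the mutant, against 123.3, 180.2 and 226 CPM in WT (-1.33 ± 0.23, adjusted p = 0.00082). EMI2 (YDR516C), a paralog of GLK1, had 36.4, 43.6 and 50.1 CPM in the mutant, against 68.9, 90.7 and 108.1 CPM in WT (-1.05 ± 0.17, adjusted p = 0.000303). HXK2, the predominant hexokinase of glucose-grown cells, had 2244, 2411 and 2347 CPM in the mutant, against 1972, 2104 and 2078 CPM in WT, and its log2 change of 0.19 ± 0.10 did not pass. GLK1 overlaps the dubious frame YCL042W on the same strand, so some reads could be shared.

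Further down glycolysis, TDH1 and GPM2 were lower in the mutant. TDH1 (YJL052W), an isozyme of glyceraldehyde-3-phosphate dehydrogenase, had 22.5, 18.0 and 24.9 CPM in labelled msn2/4∆, against 59.5, 88.2 and 113.8 CPM in WT (-2.01 ± 0.33, adjusted p = 0.000392). GPM2, a homolog of phosphoglycerate mutase, had 3.88, 3.90 and 5.10 CPM in the mutant, against 9.49, 8.17 and 8.2 CPM in WT, and passed the test just under the 2-fold line (-0.99 ± 0.20, adjusted p = 0.00712). GPM2 no longer passed without mutant replicate 1 or 2 (adjusted p up to 0.0889). The other glyceraldehyde-3-phosphate dehydrogenase genes TDH2 and TDH3 had log2 changes of 0.23 ± 0.13 and 0.20 ± 0.12 and did not pass. TDH1, TDH2 and TDH3 are close in sequence, and the labels and notes do not say how shared reads were counted. Of 25 glycolytic genes 4 passed lower and none higher, where 0.786% and 0.262% of all tested genes did, and the list's median log2 change was 0.08. With the replicate block PYK2, a pyruvate kinase isozyme, and ENO1, an enolase isozyme, passed as well, at -0.50 ± 0.08 (adjusted p = 0.000415) and -0.53 ± 0.12 (adjusted p = 0.0113). Among 19 hexose transporter and sensor genes 1 passed, HXT4 (YHR092C), a high-affinity glucose transporter. It had 14.5, 12.8 and 16.8 CPM in the mutant, against 31.2, 40.6 and 64.3 CPM in WT (-1.64 ± 0.26, adjusted p = 0.000251). No STRE core lay in the 500 bases before HXT4.

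**Figure D2:**
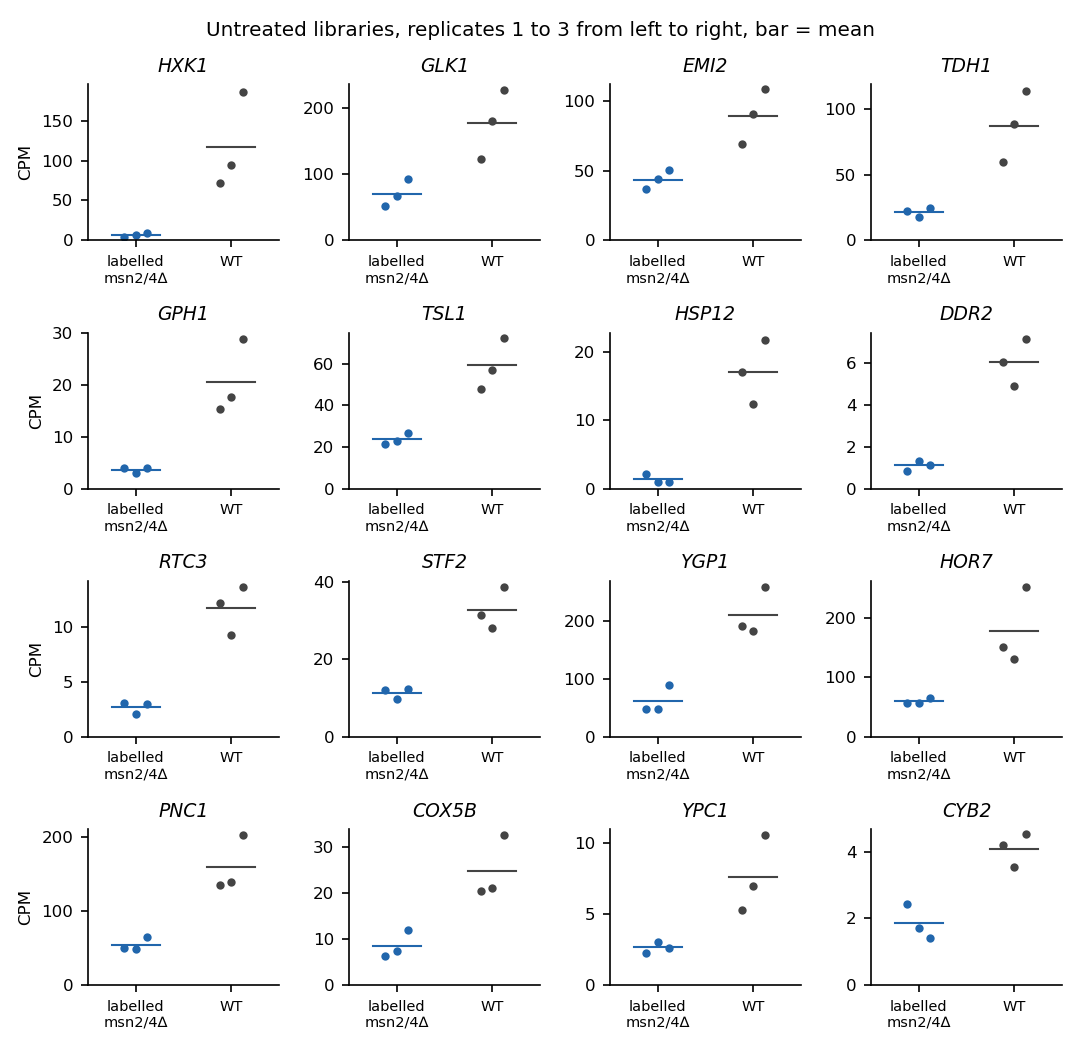
CPM of 16 genes called lower, in each untreated library, labelled msn2/4∆ (blue, left) and WT (grey, right), with replicates 1 to 3 from left to right and bars at the means; each vertical axis starts at 0. In no panel do the strains overlap, and in HXK1 the mutant libraries reach at most 8.80 CPM while the WT libraries start at 71.3 CPM.

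In storage carbohydrate metabolism, genes of glycogen and of trehalose were lower in the mutant, more of them past the test with the replicate block than without it. GPH1 (YPR160W), glycogen phosphorylase, which releases glucose units from glycogen, had 3.88, 3.04 and 3.87 CPM in labelled msn2/4∆, against 15.4, 17.6 and 28.8 CPM in WT (-2.52 ± 0.36, adjusted p = 6.31e-05). It was the only 1 of 15 glycogen genes to pass (0.786% of all tested genes passed lower). The mutant libraries lay below WT in 8 of the 15, and in 7.68% of all tested genes. The glycogen synthase genes GSY1 and GSY2 and the branching enzyme gene GLC3 had log2 changes of -1.09, -0.80 and -1.0 and missed the threshold. With the replicate block all of these passed, at adjusted p = 0.0217 for GSY1, 0.00331 for GSY2 and 0.0164 for GLC3. TSL1 (YML100W), a large subunit of the trehalose synthase complex, had 21.4, 23.0 and 26.7 CPM in the mutant, against 48.0, 57.2 and 72.4 CPM in WT (-1.32 ± 0.26, adjusted p = 0.00432). NTH1, neutral trehalase, which breaks trehalose down, was lower too (-0.58 ± 0.13, adjusted p = 0.0164). TSL1 no longer passed without mutant replicate 1 (adjusted p = 0.05, just above the threshold), nor NTH1 without replicate 1 or 2 of the mutant or replicate 2 or 3 of WT (up to 0.110). These were 2 of 8 trehalose genes, where 0.786% of all tested genes passed lower. The list's median log2 change was -0.26, beside -0.01 over all genes. TPS1, the synthase itself, had a log2 change of -0.50 ± 0.18 that passed with the replicate block only (adjusted p = 0.0209).

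Small stress proteins were read at a low level in WT and at a lower one in the mutant. HSP12 (YFL014W), a small membrane-associated heat shock protein, had 2.13, 0.950 and 0.968 CPM in labelled msn2/4∆, against 17.1, 12.4 and 21.8 CPM in WT (-3.62 ± 0.69, adjusted p = 0.00334). DDR2 (YOL052C-A), a stress protein first found as DNA damage responsive, had 0.838, 1.33 and 1.14 CPM in the mutant, against 6.05, 4.91 and 7.12 CPM in WT (-2.46 ± 0.56, adjusted p = 0.0194). RTC3 (YHR087W) had 3.12, 2.09 and 2.99 CPM in the mutant, against 12.3, 9.29 and 13.7 CPM in WT (-2.08 ± 0.29, adjusted p = 5.66e-05). HSP12 did not pass when the 12 untreated libraries were fitted alone (adjusted p = 0.116) or with WT replicate 1 as the sole WT library (0.0761), and passed without each single library. DDR2 rested on few reads, with 11, 14 and 13 counts in the mutant libraries and 81, 258 and 284 counts in the WT libraries. Its call was lost when replicate 1, 2 or 3 of the mutant or replicate 3 of WT was left out (adjusted p up to 0.164).

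Other general stress genes called lower were read at higher levels, among them 4 whose upstream bases are printed above. YGP1 (YNL160W), a secreted cell wall glycoprotein, had 48.6, 48.1 and 88.4 CPM in labelled msn2/4∆, against 190.1, 182 and 257 CPM in WT (-1.77 ± 0.17, adjusted p = 1.33e-07). PNC1 (YGL037C), nicotinamidase of the NAD salvage pathway, had 49.7, 48.7 and 65.1 CPM in the mutant, against 134.5, 139.6 and 203 CPM in WT (-1.54 ± 0.17, adjusted p = 7.33e-07). HOR7 (YMR251W-A), a gene known to respond to high osmolarity, had 56.8, 57.2 and 65.7 CPM in the mutant, against 150.4, 131.05 and 253 CPM in WT (-1.57 ± 0.20, adjusted p = 1.22e-05). The next gene, STF2 (YGR008C), encodes a hydrophilic protein linked to the mitochondrial ATPase and to survival of drying. It had 12.1, 9.79 and 12.2 CPM in the mutant, against 31.4, 28.0 and 38.8 CPM in WT (-1.52 ± 0.20, adjusted p = 2.55e-05). All 4 kept their call in each setting tried.

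As a list, 52 genes known as Msn2/4 targets were tested. Of these 11 were called lower and none higher, against 0.426% and 0.115% of all tested genes. With no fold minimum 13 passed lower, 1 passed higher (MSN4 itself) and 38 did not pass. UBI4, polyubiquitin, and PRX1, mitochondrial peroxiredoxin, were the 2 that passed lower below 2-fold, at -0.62 ± 0.13 (adjusted p = 0.00593) and -0.50 ± 0.13 (adjusted p = 0.0472). UBI4 no longer passed without mutant replicate 1 (0.0905), nor PRX1 without mutant replicate 1 or 2 or WT replicate 3 (up to 0.663). The log2 change was negative in 47 of the 52, with a median of -0.50 beside -0.01 over all genes. The mutant libraries lay below all WT libraries in 33 of the 52, and in 7.68% of all tested genes. With the replicate block 20 passed lower, where 89 of all tested genes did, HSP42, GSY2, DCS1, GLC3, GPD1, SPI1 and TPS1 among the 20 in addition. With WT replicate 1 as the sole WT library 7 were called lower.

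Several textbook members of the response did not pass in untreated cells. CTT1, the cytosolic catalase, had 13.5, 14.6 and 13.1 CPM in labelled msn2/4∆, against 15.0, 14.9 and 17.2 CPM in WT, a log2 change of -0.20 ± 0.31. HSP104, the disaggregase, had 261, 266 and 279 CPM in the mutant, against 294, 311 and 356 CPM in WT (-0.25 ± 0.17). HSP26, a small heat shock protein, had 8.0, 8.08 and 9.50 CPM in the mutant, against 10.8, 15.0 and 19.0 CPM in WT (-0.83 ± 0.33). SOD2, mitochondrial superoxide dismutase, had a log2 change of -0.04. For CTT1 and SOD2 the change was smaller than its error. The libraries of CTT1, HSP104 and HSP26 did not overlap between the strains, and those of SOD2 did.

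**Figure D3:**
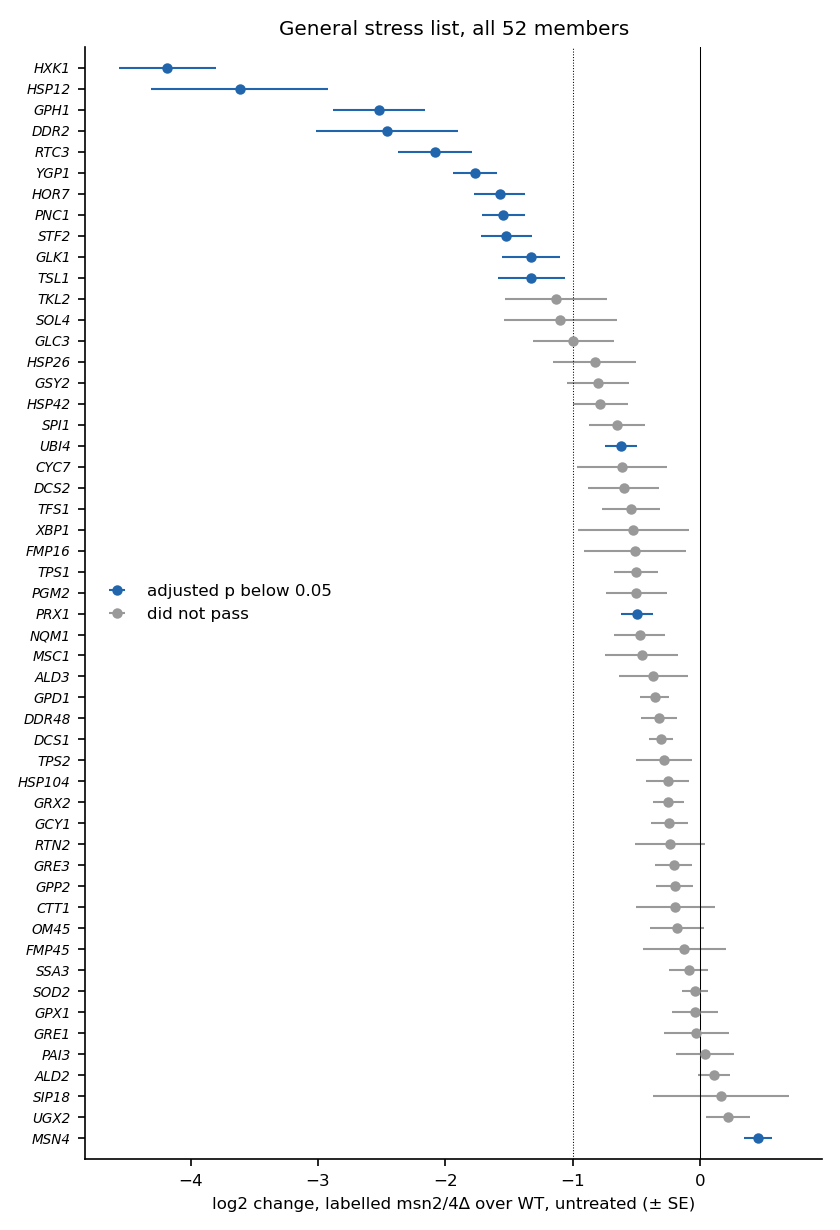
Log2 change of labelled msn2/4∆ over WT in untreated cells for the 52 tested Msn2/4-target genes, sorted, with bars of ± 1 SE. Blue points have an adjusted p below 0.05, and the dotted line marks a 2-fold fall; the 11 called genes run from HXK1 at -4.18 to TSL1 at -1.32.

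The other genes called lower have varied roles. COX5B (YIL111W), the low-oxygen isoform of cytochrome c oxidase subunit V, had 6.32, 7.32 and 12 CPM in labelled msn2/4∆, against 20.5, 21.2 and 32.6 CPM in WT (-1.55 ± 0.23, adjusted p = 9.54e-05). COX5A, the isoform used in air, had a log2 change of 0.05 ± 0.11. COX5B was the only 1 of 50 respiratory chain and TCA cycle genes to pass, where 0.786% of all tested genes passed lower. CYB2 (YML054C), the mitochondrial L-lactate dehydrogenase, had 2.44, 1.71 and 1.41 CPM in the mutant, against 4.18, 3.52 and 4.51 CPM in WT (-1.10 ± 0.27, adjusted p = 0.0392). YPC1 (YBR183W), an alkaline ceramidase, had 2.28, 3.04 and 2.64 CPM in the mutant, against 5.30, 6.95 and 10.6 CPM in WT (-1.57 ± 0.29, adjusted p = 0.00201).

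IRC15 (YPL017C), a microtubule-associated protein, had 1.07, 0.665 and 1.5 CPM in the mutant, against 3.21, 3.41 and 3.41 CPM in WT, at an adjusted p of 0.0493. It overlaps CTF19 on the opposite strand by 27 bases. YOL153C (-1.33 ± 0.32, adjusted p = 0.0333) and YMR317W (-1.24 ± 0.30, adjusted p = 0.0342) were also called lower. YFR052C-A, numbered next to HXK1 in the systematic names, had 4, 0 and 1 counts in the mutant libraries, against 40, 154 and 281 counts in the WT libraries. It has no entry in the RefSeq annotation, so whether it shares reads with HXK1 was not tested, and its fitted log2 change of -4.91 ± 0.90 rests on these few counts. IRC15 lost its call without any 1 of the 6 libraries (adjusted p up to 0.327) and YMR317W without any but WT replicate 3 (up to 0.221). YOL153C lost it without mutant replicate 1 or 2 or WT replicate 1 or 3 (up to 0.267), and CYB2 without mutant replicate 2 or 3 or WT replicate 1 or 3 (up to 0.254).

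Iron genes fell in a different pattern from the stress genes. Cells short of iron activate Aft1, which raises siderophore uptake genes. FIT1, FIT2 and FIT3 encode cell wall mannoproteins that hold iron-loaded siderophores. FIT2 (YOR382W) had 78.4, 97.2 and 110.2 CPM in labelled msn2/4∆, against 297, 276 and 182 CPM in WT (-1.40 ± 0.20, adjusted p = 6.31e-05). FIT3 (YOR383C) had 132.3, 152 and 183 CPM in the mutant, against 561, 466 and 266 CPM in WT (-1.47 ± 0.24, adjusted p = 0.000326). FIT1 (YDR534C) had 11.7, 10.9 and 13.3 CPM in the mutant, against 38.0, 39.6 and 21.5 CPM in WT (-1.46 ± 0.22, adjusted p = 0.000146). In all 3 genes WT replicate 3 was the lowest WT library, unlike in most of the stress genes.

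ARN2, a siderophore transporter, had 121.5, 148 and 156 CPM in the mutant, against 240.1, 271 and 173 CPM in WT (-0.69 ± 0.15, adjusted p = 0.0111), and no longer passed without mutant replicate 1 or WT replicate 1 or 2 (up to 0.137). LSO1 (YJR005C-A), a small protein known to respond to iron shortage, had 0.990, 0.950 and 1.94 CPM in the mutant, against 18.5, 9.50 and 6.74 CPM in WT (-3.08 ± 0.36, adjusted p = 3.9e-06). Of 29 genes listed for iron uptake, which leave out LSO1, 4 passed lower and none higher, where 0.786% and 0.262% of all tested genes did. Under the replicate block 6 passed lower, where 89 of all tested genes did. HMX1, a heme oxygenase (adjusted p = 0.0451), and FTH1, a vacuolar iron transporter (adjusted p = 0.0416), were those in addition. The log2 change was negative in 28 of the 29, with a median of -0.27, and in 3392 of all 6109 genes, with a median of -0.01. FET3 and FTR1, the high-affinity iron oxidase and permease, had -0.25 ± 0.15 and -0.27 ± 0.13 and did not pass.

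The Aft1 core TGCACC, searched on both strands, lay in the 500 bases before all 5 of FIT1, FIT2, FIT3, ARN2 and LSO1, and before 12.4% of all 6000 genes. Of these 5 only FIT2 held an STRE core. The 5 were grouped after their changes were seen, and FIT1, FIT2, FIT3 and ARN2 come from a list of known Aft1 targets. Their share is therefore a description only. Among all genes called lower, MSN2 left out, 8 of 23 held the Aft1 core (34.8%), TDH1, GLK1, EMI2 and YMR317W included. LSO1 is shown as the iron gene with the largest change, over chrX:448859-449058 (minus strand), ending at least 100 bases before the coding start, with the Aft1 core in capitals.
LSO1: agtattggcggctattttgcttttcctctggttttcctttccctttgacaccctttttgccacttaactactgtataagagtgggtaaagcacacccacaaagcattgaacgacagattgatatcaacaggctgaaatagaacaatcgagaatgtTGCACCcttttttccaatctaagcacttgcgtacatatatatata
It holds 1 Aft1 core, for which the stretch was placed, so the core's presence in it is not a result. No STRE core lay in the 500 bases before LSO1.

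Among the genes that were higher in the mutant were those of secreted acid phosphatases, which free phosphate outside the cell. PHO5 (YBR093C) had 689, 626 and 522 CPM in labelled msn2/4∆, against 291, 336 and 257 CPM in WT (1.05 ± 0.13, adjusted p = 5.3e-06), and passed in each setting tried. PHO11 had 225, 201 and 131.8 CPM in the mutant, against 122.7, 100.8 and 64.3 CPM in WT (0.96 ± 0.17, adjusted p = 0.00122). PHO12 had 524, 455 and 373 CPM in the mutant, against 327, 295 and 190.5 CPM in WT (0.73 ± 0.19, adjusted p = 0.0467). PHO11 and PHO12 are near-identical copies, so how reads are split between them is uncertain. PHO12 passed only without mutant replicate 3 or WT replicate 1 when libraries were left out in turn (up to 0.457).

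Of 25 phosphate starvation genes these 3 passed higher and PHM8, a phosphatase, passed lower (-0.66 ± 0.16, adjusted p = 0.0342), where 0.262% of all tested genes passed higher and 0.786% lower. PHM8 passed only without mutant replicate 3 when libraries were left out in turn (up to 0.330). The main phosphate transporter gene PHO84 had 3162, 3297 and 2933 CPM in the mutant, against 2818, 3108 and 2691 CPM in WT (0.12 ± 0.31), and did not pass. PHO89, the sodium-coupled transporter, had a log2 change of 0.88 ± 0.38 and passed with the replicate block (adjusted p = 0.00701).

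SUL1 (YBR294W), a high-affinity sulfate transporter, had 5.18, 2.09 and 5.81 CPM in labelled msn2/4∆, against 1.57, 0.438 and 1.2 CPM in WT (2.22 ± 0.40, adjusted p = 0.00155). Its call was lost when the 6 libraries were fitted alone. MET5, a sulfite reductase subunit, had 154, 143 and 149.7 CPM in the mutant, against 112.3, 118.6 and 109.1 CPM in WT (0.39 ± 0.09, adjusted p = 0.0144), and did not pass without mutant replicate 1 or WT replicate 1 or 3 (up to 0.103). These were 2 of 25 sulfur assimilation genes, where 0.262% of all tested genes passed higher. The log2 change was positive in 22 of the 25, with a median of 0.22, and in 2716 of all 6109 genes. With the replicate block 4 passed higher, MHT1 and MET10 in addition, where 30 of all tested genes did. None of the 25 passed lower.

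The remaining genes called higher were read at a few counts, and 4 of them lie at the left end of chromosome VI. YFL066C had 4.42, 2.47 and 2.73 CPM in labelled msn2/4∆, against 1.2, 0.838 and 0.952 CPM in WT (1.77 ± 0.28, adjusted p = 0.000303). YFL065C (1.90 ± 0.34), YFL064C (2.67 ± 0.54) and COS4 (1.58 ± 0.30) were higher as well, and all 4 sit between chrVI:1437 and chrVI:7565. The next tested genes inward, SNO3 and SNZ3, had log2 changes of 0.49 ± 0.21 and 0.19 ± 0.14 and did not pass. YLR466C-B had 6.40, 5.99 and 6.33 CPM in the mutant, against 2.91, 2.72 and 3.03 CPM in WT (1.11 ± 0.19), and has no RefSeq entry. Genes at chromosome ends have near-identical copies elsewhere, and YFL064C and YFL065C overlap by 17 bases, so the counts of these genes are uncertain. COS4 and YFL064C lost their call when the 6 libraries were fitted alone, and YFL064C also without mutant replicate 2 (adjusted p = 0.0745).

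The untreated HSF1+ and hsf1∆ libraries separated these groups. In 21 of the 26 genes called lower, the labelled msn2/4∆ libraries lay below all 9 other untreated libraries, as they did in 244 of all tested genes (3.99%). The 9 include WT, by which the 26 were called, and of the 469 genes whose mutant libraries lay below WT those 244 lay below all 9, so the 21 are a description only. For the 11 general stress genes called lower, all 6 libraries of the cassette strains stood above both the mutant and WT. HOR7, for example, averaged 59.9 CPM in the mutant, 1907 in HSF1+, 1477 in hsf1∆ and 178 in WT. TSL1 averaged 23.7 CPM in the mutant, 814 in HSF1+, 1089 in hsf1∆ and 59.2 in WT. In HOR7 and TSL1 WT lay closer to the mutant than to either cassette strain.

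The 5 exceptions were FIT1, FIT2, FIT3, LSO1 and YMR317W. FIT1 averaged 12 CPM in the mutant, 9.76 in HSF1+, 11.6 in hsf1∆ and 33.0 in WT. LSO1 averaged 1.29, 0.709, 0.824 and 11.6 CPM in the same strains, so for FIT1 and LSO1 it is WT that stands apart. FIT2 averaged 95.3, 49.4, 85.2 and 252 CPM and FIT3 155.8, 70.0, 101.8 and 431 CPM in that order. WT was highest for both, but the mutant lay above HSF1+ (log2 changes of 0.95 ± 0.20 and 1.15 ± 0.24). YMR317W averaged 4.36, 6.04, 12.6 and 10.6 CPM, so WT did not stand apart there. The genes at the end of chromosome VI had the mirror pattern of the FIT genes, with WT lowest. YFL066C averaged 3.20 CPM in the mutant, 5.57 in HSF1+, 4.14 in hsf1∆ and 0.995 in WT. PHO5 and SUL1 were the 2 of 7 higher genes whose mutant libraries exceeded all 9 others, as those of 155 of all tested genes did (2.54%), out of 329 whose mutant libraries exceeded WT. PHO5 averaged 612 CPM in the mutant, 13.8 in HSF1+, 29.2 in hsf1∆ and 295 in WT. With HSF1+ as the second strain, 519 genes were called (8.5%), 145 higher in the mutant and 374 lower. This comparison shares the mutant libraries with the one against WT, so the values stand side by side only.

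**Figure D4:**
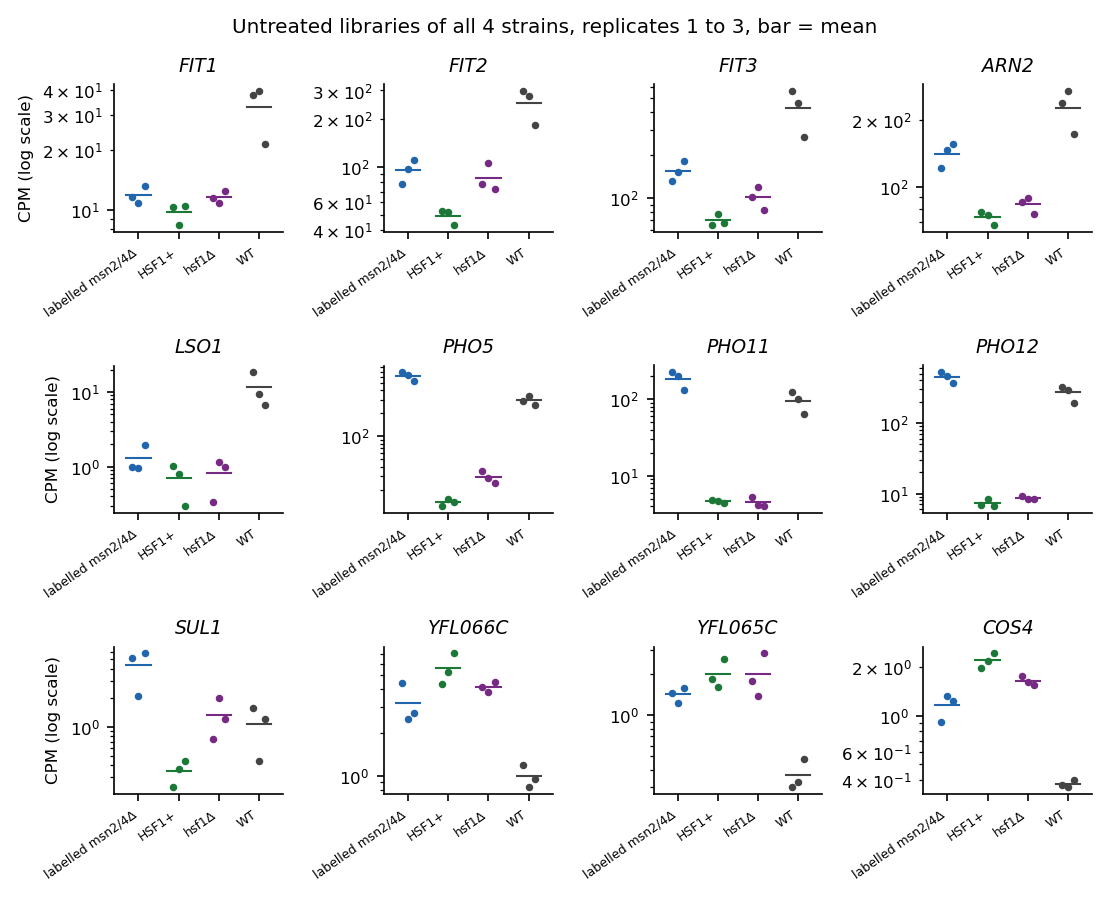
CPM (log scale) of 12 iron, phosphate, sulfate and chromosome VI end genes in the untreated libraries of labelled msn2/4∆, HSF1+, hsf1∆ and WT, replicates 1 to 3 from left to right, with bars at the means. WT is highest for FIT1, FIT2, FIT3, ARN2 and LSO1 and lowest for YFL066C, YFL065C and COS4, while the mutant is highest for the PHO genes and SUL1.

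Several gene lists had no member past the test. None passed among 138 cytosolic ribosomal protein genes (median log2 change -0.03) and 54 ribosome biogenesis genes (median -0.05), which the stress response is known to repress, and none of these had an unadjusted p below 0.05 in edgeR or passed in DESeq2. No edgeR call was made among 26 Hsf1-target chaperone genes (median 0.10), of which 4 had an unadjusted p below 0.05 and 1 passed in DESeq2. With the replicate block HSP42 passed lower and AHA1, an Hsp90 co-chaperone, passed higher (0.31 ± 0.07, adjusted p = 0.0123). None of 10 histone, 28 G1/S, 16 G2/M, 27 pheromone response or 18 gluconeogenesis genes passed in edgeR or in DESeq2, and 1 of them, a pheromone response gene, had an unadjusted p below 0.05. Of 27 antioxidant genes PRX1 and SOD1, cytosolic superoxide dismutase, passed lower, where 0.786% of all tested genes did. SOD1 had -0.36 ± 0.09 (adjusted p = 0.0342, up to 0.333 without mutant replicate 2 or 3 or WT replicate 1 or 3).

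Of 30 genes of the protein kinase A and TORC1 pathway 1 passed, where 0.786% of all tested genes passed lower. This was RAS2, a GTPase that activates adenylate cyclase. It had 184, 179 and 180.2 CPM in labelled msn2/4∆, against 257, 246 and 266 CPM in WT (-0.50 ± 0.07, adjusted p = 6.31e-05). With the replicate block RGS2 and PDE2, a regulator of glucose sensing and a cyclic AMP phosphodiesterase, passed lower as well, at adjusted p = 0.00395 and 0.0209. Among all tested genes 89 passed lower with the block. BCY1, the regulatory subunit of protein kinase A, had a log2 change of -0.09 ± 0.12 and did not pass. LEU2, URA3 and MET17 fell below the low-count filter, and HIS3 and LYS2 did not pass.

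The same strain difference was then read in the heat-shocked and AzC-treated libraries. Their levels do not enter the untreated log2 changes, but they share the model's estimate of the spread with them, and with the 6 untreated libraries fitted alone 28 genes were called in place of 33, without COS4, CYB2, SUL1, YFL064C and YMR317W. Of the 26 genes called lower, 23 passed lower after heat shock and 24 after AzC, where 25.1% and 7.68% of all tested genes did. With MSN2 left out, which the labels give as replaced, these were 22 and 23 of 25. Of the 7 called higher, 6 passed higher in each, where 27.8% and 7.82% of all genes did. None passed in the opposite direction. LSO1 and YMR317W did not pass in either condition, nor did FIT1 after heat shock or COS4 in either. Over the 6109 genes the untreated log2 changes correlated with those after heat shock at r = 0.45 and with those after AzC at r = 0.55 (Pearson, across genes, which are not independent replicates).

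For many stress genes the gap was wider under stress. The change was tested in the same model, at an adjusted p below 0.05 and 2-fold. Of 34 genes (the 33 called and MSN4), 16 differed between heat-shocked and untreated cells and 9 between AzC and untreated cells. Over all tested genes 5.75% and 0.524% did. In LSO1 and FIT1 among the 16, and in LSO1 among the 9, the gap was narrower under stress, and MSN4 changed sign in both. The untreated difference, by which the 33 were called, enters this test, so the shares are a description only. GPH1 had 15.5, 14.4 and 16.5 CPM in heat-shocked labelled msn2/4∆, against 1428, 2089 and 2409.7 CPM in heat-shocked WT. Its log2 change was -7.0 ± 0.36 there and -5.49 ± 0.35 with AzC, beside -2.52 untreated. RTC3 had 19.5, 15.3 and 12 CPM in the heat-shocked mutant, against 1089.9, 1342 and 1499.6 CPM in heat-shocked WT. HXK1 had 56.4, 60.9 and 64.8 CPM in the heat-shocked mutant, against 3539, 5334 and 5887 CPM in heat-shocked WT. In these 3 genes the heat-shocked mutant libraries reached at most 64.8 CPM, and the heat-shocked WT libraries started at 1089.9 CPM.

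CTT1, which showed no difference past the test in untreated cells, had a log2 change of -4.33 after heat shock and -0.89 with AzC. In the list of 52, 50 passed lower after heat shock and 42 with AzC, with medians of -3.08 and -1.41 beside -0.50 untreated.

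For other genes the difference was of like size in the 3 conditions, and the test of its change did not pass. COX5B had log2 changes of -1.55 untreated, -1.62 after heat shock and -1.54 with AzC. HXT4 had -1.64, -1.20 and -1.65, and PHO5 had 1.05, 1.17 and 0.86, in the same order. MSN2 had -6.58, -6.60 and -7.13. LSO1 ran the other way. It had 63.5, 82.8 and 71.0 CPM in heat-shocked labelled msn2/4∆, against 70.2, 72.5 and 56.6 CPM in heat-shocked WT, and 18.7, 22.9 and 24.6 CPM with AzC in the mutant, against 22.9, 28.6 and 18.9 CPM in WT, so its strains overlapped under either treatment.

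**Figure D5:**
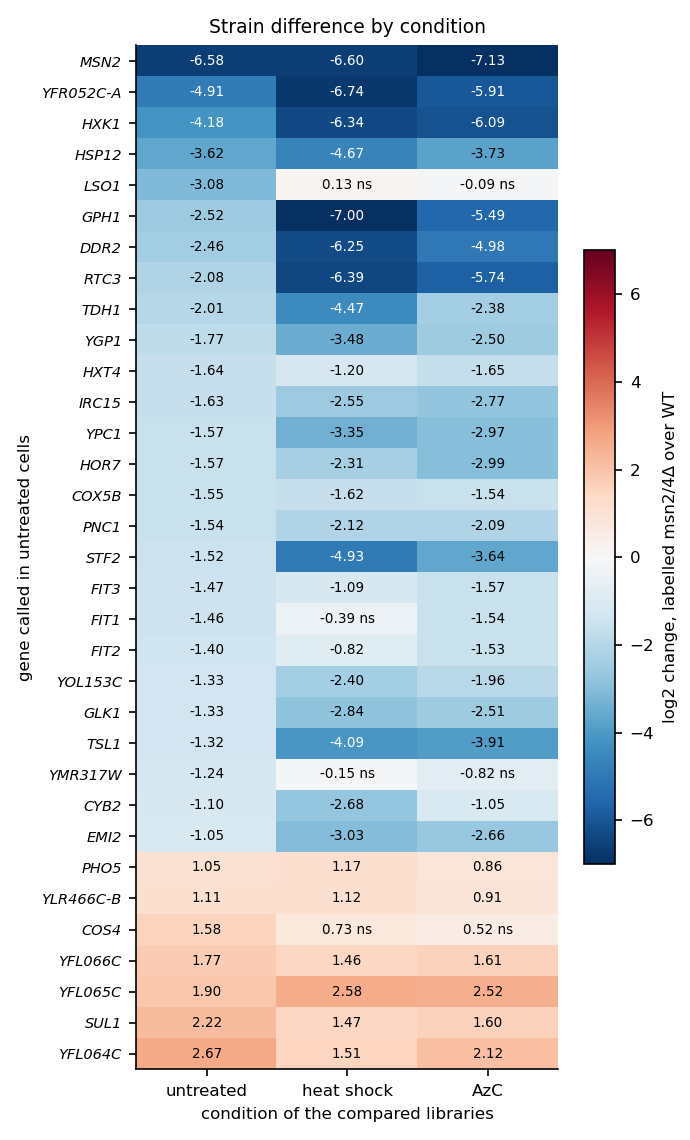
Log2 change of labelled msn2/4∆ over WT for the 33 genes called in untreated cells, in untreated, heat-shocked and AzC-treated libraries (columns), coloured on a scale centred at 0 and marked ns where the adjusted p was not below 0.05. GPH1 goes to -7.0 after heat shock and LSO1 to 0.13, while COX5B stays between -1.62 and -1.54.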

How the data were processed

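Poly-A RNA of the 36 libraries was sequenced on an Illumina NovaSeq 6000 after extraction with a RiboPure kit and TruSeq library preparation, per the labels' protocols. STAR, Salmon, Trim Galore and FastQC are listed with the build R64, without role, order or version, per the submitters' processing notes. The authors deposited raw counts per gene, as whole numbers and not normalized, in 1 table of 7126 genes. Which tool counted the reads, with which annotation and strand setting, was not stated in the labels or notes, so reads of overlapping genes on opposite strands may not be separated.

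In R 4.3.3, genes were filtered with filterByExpr by group, libraries were scaled by TMM, and all 36 libraries entered 1 quasi-likelihood model of edgeR 4.0.16 with a mean for each of 12 groups (limma 3.58.1 underlies it), without a replicate block. P-values were adjusted by Benjamini-Hochberg over all 6109 genes tested, and genes were called at an adjusted p below 0.05 and 2-fold. Log2 changes carry the SE of the fit, |log2 change| over the root of the F statistic. The change of the strain difference under treatment was tested as an interaction in the same model. The model was also run on counts simulated from its own estimates of level and spread. That simulation had no replicate effect, so it does not test the model under paired libraries.

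Total counts of the 36 libraries ran from 8159203 to 99558095. With 3 libraries a group, the spread between libraries and not counting error limits the precision of all but the genes of few counts.

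Groups and replicate numbers follow the labels. Deviations of same-numbered libraries of the 2 strains from their group means correlated at r = 0.31, 0.19 and 0.23 for numbers 1 to 3, each over 0.1, so the numbers were taken to pair the libraries, a pairing seen in the data only, and a fit with replicate number as a block is given beside a result where it changed a call.

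The compared groups, gene lists, motifs and alternatives were chosen with earlier results of these data known, and the lists are described by counts and medians only. Named genes are MSN2, MSN4, the general stress list, the auxotrophy genes, the called genes with the largest changes at a mean of at least 10 CPM, the leading members of each list and the neighbours of MSN2 and MSN4. The other called genes, LSO1, the paralogs set beside them (HXK2, TDH2, TDH3, COX5A) and PHO84, FET3, FTR1, HMX1, FTH1 and BCY1 were chosen after their values were seen.

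Positions, neighbours and upstream bases came from the RefSeq R64 genome and annotation, which held 6048 of the 7126 gene IDs. Motif windows were the 500 bases before the coding start. Alternatives were DESeq2 1.42.0, RLE size factors, library size alone, all genes unfiltered, the replicate block, fits to fewer libraries, each library left out, the deep WT libraries thinned to the median total, and no fold minimum. A block within the 12 untreated libraries and WT replicate 1 as the sole WT library were added after the data were seen.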

Additional observations from a re-analysis of the deposited data

Results flagged for a closer look

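In 16 of 34 genes examined (the 33 called genes and MSN4) the strain difference in heat-shocked cells differed by at least 2-fold from that in untreated cells, by the interaction test of the model over all genes, where 5.75% of all tested genes did. A negative interaction means that the log2 change of labelled msn2/4∆ over WT was lower under treatment. It was -4.47 ± 0.50 for GPH1, -4.32 ± 0.40 for RTC3, -3.79 ± 0.84 for DDR2, -3.41 ± 0.28 for STF2 and -2.76 ± 0.36 for TSL1. The glycolytic genes TDH1 and HXK1 had -2.46 ± 0.45 and -2.16 ± 0.48, EMI2 had -1.98 ± 0.23 and GLK1 had -1.51 ± 0.32. YPC1, YGP1, CYB2 and YOL153C had -1.78, -1.71, -1.58 and -1.07, the last at an adjusted p of 0.05, just below the threshold. MSN4 changed sign between conditions, with an interaction of -1.97 ± 0.16 (adjusted p = 1.62e-10).

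Of the genes that differed after heat shock, LSO1 and FIT1 were the exceptions in direction. LSO1 had an interaction of 3.21 ± 0.43 (adjusted p = 2.18e-06) and FIT1 one of 1.07 ± 0.32 (adjusted p = 0.0129), so the strains lay closer together after heat shock than before it. FIT2 and FIT3 did not pass this test, at 0.58 ± 0.28 (adjusted p = 0.115) and 0.37 ± 0.33 (adjusted p = 0.406), and no FIT gene passed it with AzC. The untreated difference, by which these genes were called, enters the interaction.

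With AzC 9 of the 34 genes differed from untreated cells by that test, beside 0.524% of all tested genes. The interaction was -3.66 ± 0.40 for RTC3, -2.97 ± 0.50 for GPH1, -2.58 ± 0.36 for TSL1, -2.12 ± 0.28 for STF2, -1.90 ± 0.48 for HXK1, -1.62 ± 0.23 for EMI2, -1.42 ± 0.28 for HOR7 and -1.34 ± 0.16 for MSN4. LSO1 again ran the other way, at 2.99 ± 0.45 (adjusted p = 0.000158).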

How the results depend on the processing

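The count of 33 called genes (26 lower, 7 higher) stayed between 28 and 34 under RLE size factors, DESeq2, library size alone, all genes unfiltered, thinned WT libraries, the 12 untreated libraries alone and the 6 compared libraries alone, the last with 4 higher. It was 38 with the replicate block and 41 with the block in the untreated libraries alone, and in both all 33 calls remained. Leaving out 1 library gave 26 to 33 calls, 20 to 25 lower and 6 to 8 higher, and 30 of the 64 genes that passed the adjusted p passed without each library. With WT replicate 1 as the sole WT library, whose spread is then assumed to be like that of the other groups, 14 were called, 13 lower and 1 higher, and 7 of the general stress list were called lower. Of the 33 genes, 13 passed in all 16 settings, and no called gene changed sign in any. The replicate block ended none of the 64 results past the adjusted p, and changed no call among the genes named other than those given beside the results.

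Without the fold minimum the counts in all, higher and lower were 64, 16 and 48 for untreated cells, 3230, 1697 and 1533 for heat shock, 947, 478 and 469 for AzC, and 2025, 844 and 1181 for the mutant over HSF1+. They were 1842, 995 and 847 for the heat shock interaction and 96, 32 and 64 for the AzC interaction. With the fold minimum the AzC interaction gave 32 genes, 49 with the replicate block. Its genes with a positive interaction numbered 2, and 4 by library size alone, 6 with the block, 4 with DESeq2, and 1 with WT replicate 1 alone; leaving out 1 library gave 1 to 3. The causes of these differences were not tested beyond the settings' own construction.

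WT replicates 2 and 3 were the deepest of the 6 libraries, and genes of few counts, such as YFL064C with 12, 13 and 7 counts in the mutant and 0, 11 and 4 in WT, are the least certain.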

Other observations

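Some genes outside the groups above passed at less than 2-fold and were chosen here after their values were seen. Of the reductases, YDL124W and ARA1 were lower in labelled msn2/4∆, while GRE3 and GCY1, aldo-keto reductases of the general stress list, did not pass (log2 changes of -0.21 ± 0.15 and -0.24 ± 0.14). YDL124W had 109.9, 104.6 and 120.7 CPM in the mutant, against 218, 183 and 189 CPM in WT (-0.82 ± 0.10, adjusted p = 5.3e-06), and ARA1 had 134.6, 130.8 and 145 CPM in the mutant, against 181, 178 and 196 CPM in WT (-0.43 ± 0.09, adjusted p = 0.00904). YDL124W passed without each of the 6 libraries, whereas ARA1 did not without mutant replicate 1 or 2 or WT replicate 3 (up to 0.0862). PEP4, the vacuolar aspartyl protease, and PBI2, an inhibitor of vacuolar protease B, were lower too, at -0.33 ± 0.08 (adjusted p = 0.025) and -0.65 ± 0.13 (adjusted p = 0.0058). PEP4 passed only without mutant replicate 3 when libraries were left out in turn (up to 0.257), and PBI2 did not pass without mutant replicate 1 or WT replicate 3 (up to 0.0693). YKL151C, which encodes an enzyme that repairs damaged NADH, had 19.3, 21.7 and 24.5 CPM in the mutant, against 34.2, 36.5 and 42.6 CPM in WT (-0.80 ± 0.14, adjusted p = 0.00128), and passed without each library.

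ARO1, the multifunctional enzyme of aromatic amino acid synthesis, was higher in the mutant, with 315, 303 and 294 CPM, against 261, 256 and 229 CPM in WT (0.29 ± 0.06, adjusted p = 0.0164, up to 0.197 with a library left out). It was the 1 of 51 amino acid synthesis genes to pass, where 0.262% of all tested genes passed higher. The log2 change was positive in 44 of the 51, with a median of 0.12, and in 2716 of all 6109 genes, with a median of -0.01.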
